A study of Homo sapiens with 18 samples.

Results

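Cisplatin alone (C) was set against no treatment at 24 h in MSTO-211H cells, a human line of malignant mesothelioma, a tumour of serosal linings such as the pleura. The comparison holds the 3 arrays titled cisplatin 24 h (replicates 1, 2 and 3) and the 2 titled untreated 24 h (replicates 1 and 2), which are 5 of the 18 arrays of the series, over all 22283 probe sets of the HGU133A array. A probe set is a group of short probes that reads 1 transcript, and its value here is a log2 signal, so that a difference of 1 is a doubling. C cells received 4.5 µg/mL cisplatin for 24 h. Untreated cells received no drug, and no vehicle is named for them. C cells of 8 h (2 arrays, same dose), untreated cells of 8 h (2 arrays) and cells given 760 µM piroxicam for 24 h (P, 3 arrays) were used to show where the C arrays of 24 h differed. Cells given both drugs at these doses (P/C, 2 arrays at 24 h) enter the shared fit and the distances between arrays. Piroxicam inhibits the cyclooxygenases, the enzymes of prostaglandin synthesis. All groups are cultures of the same line in the same complete medium, described as biological replicates, so the values say nothing of other lines. The number of arrays limits the precision.

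Cisplatin binds purine bases and links neighbouring bases or opposite strands of DNA. Stalled replication and transcription then activate damage kinases, which stabilise the p53 protein. p53 binds its DNA elements and turns on genes of cell cycle arrest, DNA repair and cell death, among them CDKN1A, which encodes the kinase inhibitor p21. Through p21 the genes of the G2 and M phases are held down, and their promoters typically carry a CCAAT box and a cell cycle homology region (CHR). Mesothelioma is commonly treated with cisplatin-based chemotherapy.

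The 3 C arrays were not alike. A filter kept 3057 probe sets, those with an interquartile range of 0.25 or more and with 5 of the 18 arrays at a signal of 100 or more. Over these, C replicates 2 and 3 differed from each other by 0.276 on average in absolute log2 signal. The array labelled C 24 h replicate 1 differed by 0.458 and 0.418 from C replicates 2 and 3, and by 0.298 and 0.389 from untreated replicates 1 and 2. It thus lay nearer to both untreated arrays than to either other C array, while the untreated arrays differed from each other by 0.340. C replicate 3 was nearest to the array of both drugs labelled P/C 24 h replicate 1, at 0.261. The 3′ minus 5′ signal of the actin control probe sets, a sign of RNA quality, was 1.08, 1.04 and 0.84 on the C arrays against 0.81 and 1.45 on the untreated arrays, so replicate 1 lay within the untreated values. Whether this array is a C array in all respects was not tested. The main counts of calls are therefore given with and without it, while some fold changes, medians and smaller counts are given for a single fit.

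VIM and KRT18 were high in every array. VIM, the intermediate filament protein of mesenchymal cells, had a log2 signal of 11.83 to 12.01 in the 5 arrays, and KRT18, a keratin of simple epithelia, had 11.72, 11.65 and 11.78 with C against 12.01 and 11.82 untreated. The mesothelial markers MSLN, KRT5, KRT7, KRT19, UPK3B and PDPN were near background, with 1.61 to 2.68 in all 5 arrays. The labelled cell type is thus not borne out by these. VIM and KRT18 are on the same list, of which 4 of the 15 on the array reached a signal of 100 in any of the 5. CDH2 and KRT8 of that list passed the filter described above, so the listed markers were mixed. Of 15 markers of leukocytes and red cells none exceeded 3.08, and their summed linear signal was 59.5 to 65.8 with C and 59.9 to 66.3 untreated. Of 14 markers of endothelium, muscle and fibroblasts none reached a signal of 100, and their summed linear signal was 99.0 to 138 with C and 94.1 to 104 untreated. ACTA2, a smooth muscle actin, was the exception to their flat levels, with 4.08, 5.57 and 5.84 with C against 4.31 and 3.46 untreated. Its part in any result was not tested.

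A probe set counts as called where limma gave it an adjusted p no higher than 0.05 (Benjamini-Hochberg over the 3057 probe sets) together with a log2 fold change of 1 or more in either direction. With all 5 arrays 0 probe sets were called, at a smallest adjusted p of 0.0554, while 145 higher and 276 lower had an unadjusted p under 0.05 (4.74% and 9.03% of those tested). Without the array labelled C 24 h replicate 1, 42 were called higher with C (1.37%) and 81 lower (2.65%). In 94 of these 123 the array left out deviated to the same side, but by little. Its median deviation from the untreated mean was 0.12 over the 42 higher probe sets, where C replicates 2 and 3 had 1.64, and −0.22 over the 81 lower ones, where they had −1.40. The untreated mean of these deviations also entered the calls, so the count of 94 is no separate support for them.

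**Figure D1:**
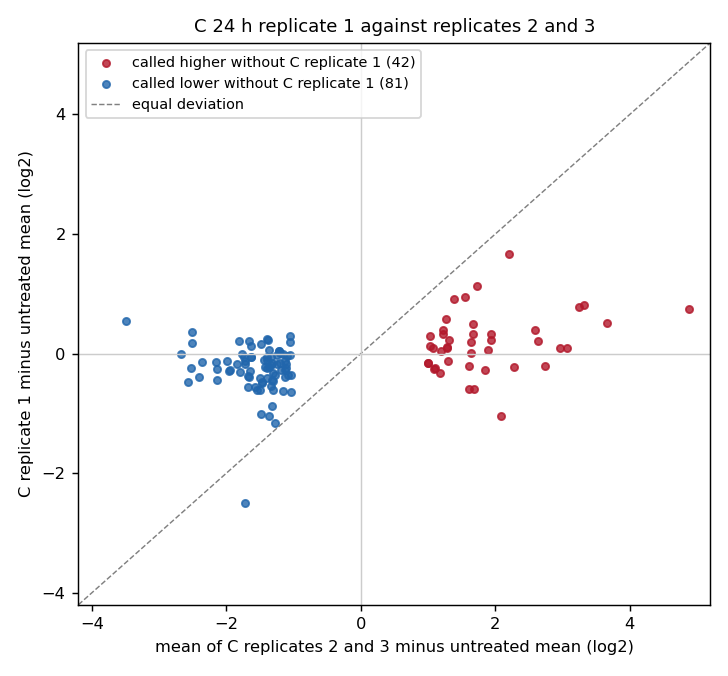
Deviation from the untreated 24 h mean (log2) of the array labelled C 24 h replicate 1 (vertical axis) against the mean of C replicates 2 and 3 (horizontal axis), for the 42 probe sets called higher (red) and the 81 called lower (blue) without replicate 1, with a dashed line of equal deviation. Most points lie nearer to 0 on the vertical than on the horizontal axis, at a vertical median of 0.12 for the higher and −0.22 for the lower probe sets.

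The p53 target genes stood higher with C, above all in C replicates 2 and 3. Of 99 listed targets 79 are on the array and 28 passed the filter, of which 26 had a positive and 2 a negative log2 fold change, with a median of 0.53. Among all 2203 genes tested 856 were positive and 1347 negative, with a median of −0.10. Over all 79 targets on the array, filter or not, the median was 0.50, against 0.01 over all 11963 genes on the array. By array the median of the 28 stood 0.13, 0.80 and 0.99 above the untreated mean in C replicates 1, 2 and 3, and 0.06 above and −0.06 below it in the untreated arrays. In 9 of the 28 every C array lay above both untreated arrays and in 1 below them, where 9.94% and 21.9% of all probe sets did so. None was called with all arrays, and 12 were called higher and 0 lower without the array labelled C 24 h replicate 1, where 1.37% and 2.65% of all probe sets were. The other 16 had log2 fold changes of −0.39 to 0.97 with all arrays.

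Feedback and arrest genes of p53 had 11 members that passed. CDKN1A, which encodes p21, had a log2 signal of 8.66, 10.71 and 11.46 with C against 8.72 and 8.20 untreated (202284_s_at). The array of replicate 1 lay between the untreated arrays and the other C arrays lay far above them. The log2 fold change was 1.82 (SE 0.52, limma adjusted p = 0.216), and 2.63 (SE 0.29, adjusted p = 0.000119) without that array. PPM1D, the phosphatase that switches the damage signal off, had 6.27, 8.72 and 8.82 with C against 6.36 and 6.62 untreated. Here replicate 1 was the lowest of the 5 arrays. GADD45A, a damage-induced inhibitor of growth, had 10.06, 11.29 and 11.51 with C against 9.93 and 9.53 untreated, with no overlap of the groups (1.22, SE 0.34, limma adjusted p = 0.207, and 1.67, adjusted p = 0.00122, without the array labelled C 24 h replicate 1). PTP4A1, a phosphatase, was the last of the 4 called without that array (200732_s_at, 1.01, SE 0.22, limma adjusted p = 0.0147), against 0.62 (adjusted p = 0.361) with all arrays. The others were not called in either fit. CCNG1, a cyclin of p53 feedback, had 10.33, 10.74 and 10.70 with C against 10.57 and 10.33 untreated, and PLK2, a polo-like kinase, had 10.54, 10.11 and 10.28 with C against 10.60 and 9.98 untreated, so that both overlapped. MDM2, the ligase that degrades p53, was too dim for the filter, with 2.30, 4.83 and 6.39 with C against 2.69 and 2.13 untreated.

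Of the cell death targets 6 passed. PMAIP1, which encodes the BH3 protein NOXA, had 8.12, 10.42 and 10.24 with C against 8.62 and 8.81 untreated. The array of replicate 1 was the lowest of the 5, and without it the log2 fold change was 1.62 (SE 0.24, limma adjusted p = 0.00115), against 0.88 (adjusted p = 0.399) with it. DRAM1, a lysosomal membrane protein linked to autophagy, had 7.11, 8.56 and 8.87 with C against 6.79 and 6.75 untreated. All C arrays were above the untreated ones, at 1.41 (SE 0.37, limma adjusted p = 0.199), and 1.94 (adjusted p = 0.000255) without the array labelled C 24 h replicate 1. TRIAP1, an inhibitor of apoptosis in the same programme, was called without it as well (1.09, SE 0.22, limma adjusted p = 0.00986). With all arrays TRIAP1 had 0.64 (adjusted p = 0.378). BAX, the pore-forming effector of apoptosis, had 6.84, 6.47 and 6.15 with C against 6.75 and 6.04 untreated, and its arrays overlapped. The death receptor gene TNFRSF10B had 8.55, 9.48 and 9.23 with C against 8.73 and 8.61 untreated and was not called in either fit. FAS, a further death receptor on the list, failed the filter with 4.90, 7.52 and 7.57 with C against 5.18 and 4.65 untreated. The receptor genes TNFRSF10C, TNFRSF10D and EDA2R of the same list also failed it, with log2 fold changes of 0.15, −0.10 and 0.16.

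Among the targets of repair XPC, which recognises damage in nucleotide excision repair, had 6.31, 7.38 and 7.62 with C against 6.21 and 6.21 untreated (0.89, SE 0.29, limma adjusted p = 0.26, and 1.29, adjusted p = 0.00152, without the array labelled C 24 h replicate 1). DDB2, its partner in damage recognition, had 6.55, 8.95 and 8.82 with C against 6.51 and 6.22 untreated but did not pass the filter. PCNA, the replication clamp, had 9.54, 10.22 and 9.98 with C against 9.69 and 9.80 untreated, which overlap.

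Of the targets of metabolism, stress and signalling 8 passed, with a median of 1.07. GDF15, a secreted stress cytokine, had the largest difference of the p53 targets, with 9.01, 11.27 and 11.68 with C against 8.89 and 7.56 untreated (2.43, SE 0.57, limma adjusted p = 0.187, and 3.25, adjusted p = 0.000119, without the array labelled C 24 h replicate 1). The untreated arrays differed from each other by more than replicate 1 did from the higher of them. SESN1, a sestrin that restrains mTORC1, had 6.15, 7.69 and 8.01 with C against 6.02 and 5.80 untreated, and every C array was above both. CYFIP2, a member of the WAVE actin regulators, had 8.36, 8.80 and 9.15 with C against 7.91 and 6.57 untreated. Here replicate 1 lay above both untreated arrays, about midway between untreated replicate 1 and C replicate 2. CES2, a carboxylesterase, was also called without replicate 1 (213509_x_at, 1.64, SE 0.25, limma adjusted p = 0.00116), against 1.16 (adjusted p = 0.236) with all arrays. LPIN1, a phosphatidate phosphatase, and the helicase gene ASCC3 were the 2 of the 28 with a negative value, at −0.39 and −0.32 with all arrays. Of the 51 targets that did not pass the filter 9 were called higher and 0 lower in a fit of all 22215 probe sets without the array labelled C 24 h replicate 1, in which 0.473% of all probe sets were called higher and 0.72% lower.

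**Figure D2:**
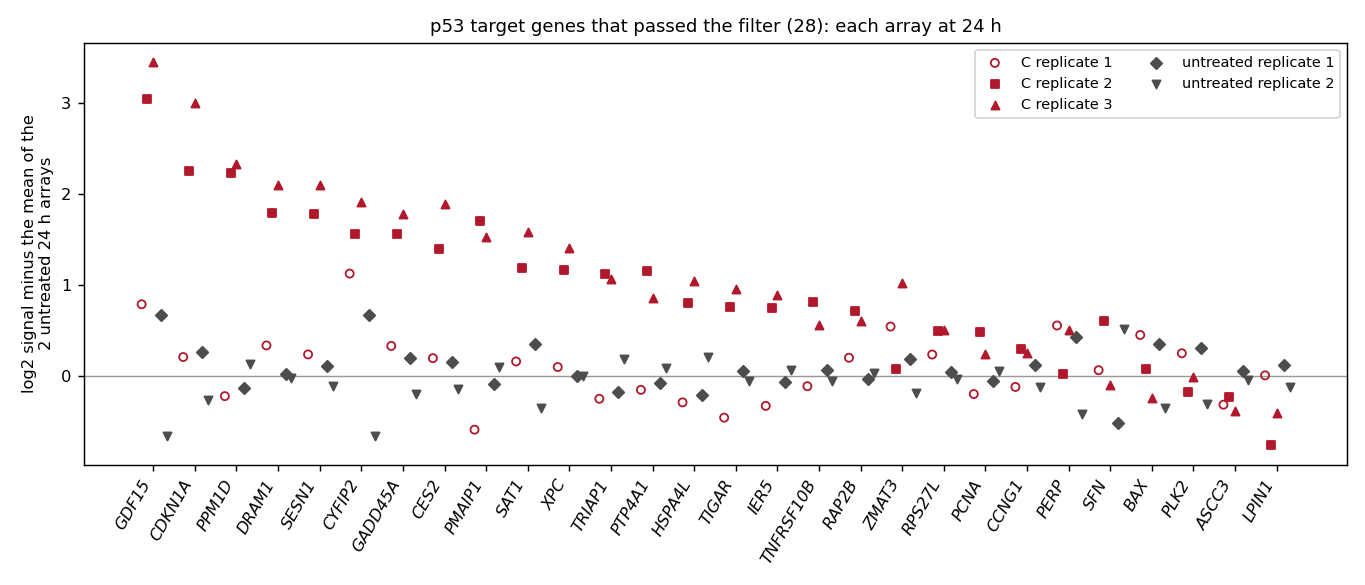
Log2 signal minus the mean of the 2 untreated 24 h arrays (vertical axis) for the 28 p53 target genes that passed the filter (horizontal axis, by fold change without C replicate 1), with each C array in red and each untreated array in grey. C replicates 2 and 3 reach 2.25 to 3.45 for GDF15 and CDKN1A, and the open circles of C replicate 1 stay near the untreated arrays for most genes.

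Genes of mitosis and the G2 phase stood lower with C. Of 75 listed, 71 are on the array and 42 passed the filter, of which 40 had a negative and 2 a positive log2 fold change, with a median of −0.42. After each array was centred on its own median, which takes out the shift of −0.10 of all probe sets, 35 were negative and 7 positive, with a median of −0.33. In 27 every C array lay below both untreated arrays and in 1 above, where 21.9% and 9.94% of all probe sets did so. By array the median was −0.17, −0.53 and −0.48 in C replicates 1, 2 and 3. Without the array labelled C 24 h replicate 1 the median log2 fold change was −0.54. The arrays read the mean of all cells in a culture, so fewer dividing cells and less RNA per dividing cell cannot be told apart. None was called with all arrays, and 6 were called lower and 0 higher without the array labelled C 24 h replicate 1, where 2.65% and 1.37% of all probe sets were.

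BUB1, the kinase of the spindle checkpoint, differed most of the 42, with 7.42, 5.59 and 5.50 with C against 7.51 and 7.58 untreated. All C arrays were below the untreated ones, replicate 1 by little, and the log2 fold change was −1.37 (SE 0.42, limma adjusted p = 0.236), and −2.00 (SE 0.25, adjusted p = 0.000255) without that array. SPC25, a kinetochore protein of the same list that did not pass the filter, had 6.15, 4.31 and 3.72 with C against 6.42 and 6.16 untreated, and replicate 1 lay just below the untreated arrays. CCNA2, cyclin A2 of the S and G2 phases, had 8.85, 7.67 and 6.85 with C against 8.72 and 9.23 untreated (203418_at). Its second probe set, 213226_at, had 7.45, 6.73 and 6.29 with C against 7.96 and 8.16 untreated, so the groups overlapped on the one and not on the other. CCNB2, cyclin B2, had 8.81, 7.71 and 8.09 with C against 8.99 and 9.19 untreated. KIF20A, KIF23 and PRC1, a pair of kinesins and the bundling protein of the central spindle in cytokinesis, had log2 fold changes of −1.0, −0.85 and −0.95 with all arrays, and −1.39, −1.20 and −1.33 without the array labelled C 24 h replicate 1 (limma adjusted p = 0.00986, 0.0176 and 0.0176). CCNB1, cyclin B1, had 9.68, 8.84 and 8.74 with C against 9.69 and 9.61 untreated and was not called in either fit. FOXM1, the transcription factor of the mitotic genes, had 6.26, 5.75 and 6.19 with C against 6.66 and 6.87 untreated, below in every C array and called in neither fit. TOP2A, the topoisomerase of dividing cells, from the list of condensin and its partners, overlapped, with 9.06, 9.03 and 9.08 with C against 8.86 and 9.08 untreated.

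**Figure D3:**
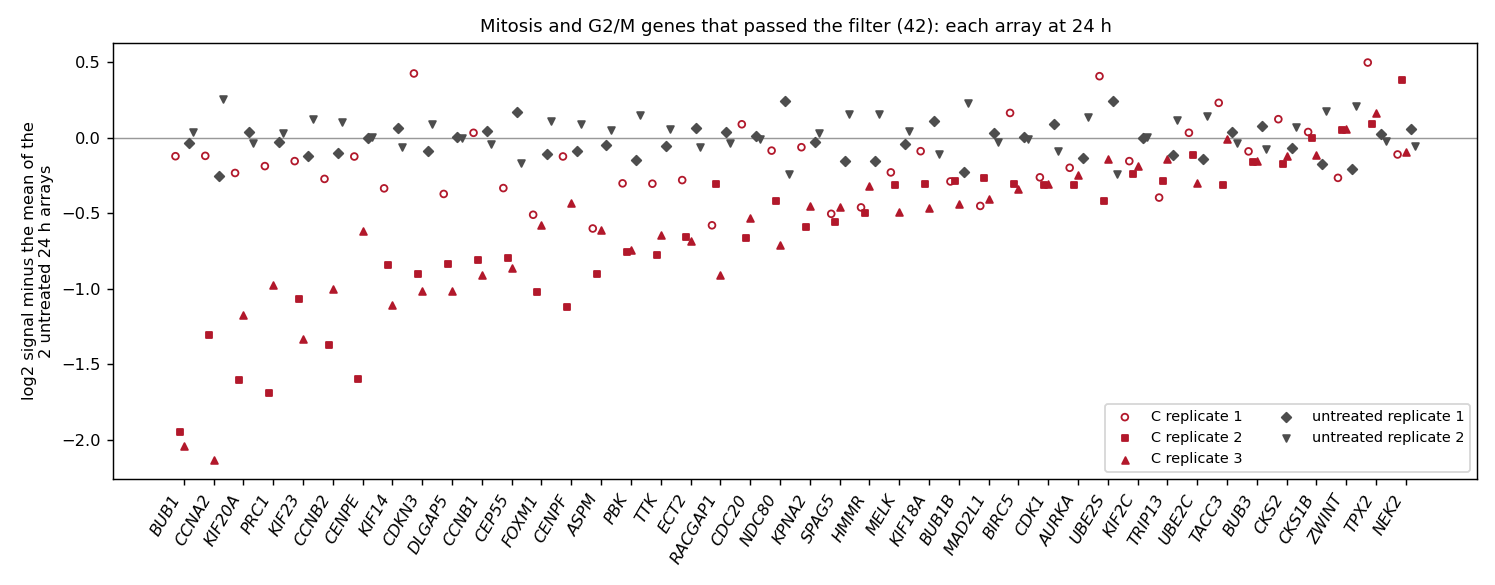
Log2 signal minus the mean of the 2 untreated 24 h arrays (vertical axis) for the 42 genes of mitosis and the G2 phase that passed the filter (horizontal axis, by fold change without C replicate 1), with each C array in red and each untreated array in grey. C replicates 2 and 3 lie below the untreated arrays for most genes, down to −2.13 for CCNA2, and C replicate 1 lies nearer to 0, at a median of −0.17.

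The promoters of the 6 mitotic genes called without that array are shown because they hold the letters of the CCAAT box, and some those of the CHR. Each stretch is the 130 bases before the transcript start in the coding direction, from RefSeq on GRCh38.p14. They are BUB1 at chr2:110678064-110678193 (minus strand), CCNA2 at chr4:121823884-121824013 (minus strand), CCNB2 at chr15:59105016-59105145 (plus strand), KIF20A at chr5:138178982-138179111 (plus strand), KIF23 at chr15:69414219-69414348 (plus strand) and PRC1 at chr15:90994536-90994665 (minus strand). Capitals mark CCAAT, or ATTGG on the other strand, and TTTGAA, letters of the CHR. Forms of the CHR other than TTTGAA and TTCGAA were not searched, so a stretch without these capitals, such as that of CCNA2, need not lack a CHR.
BUB1: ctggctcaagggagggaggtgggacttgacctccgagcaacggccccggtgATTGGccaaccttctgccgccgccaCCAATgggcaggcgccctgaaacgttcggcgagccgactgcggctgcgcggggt
CCNA2: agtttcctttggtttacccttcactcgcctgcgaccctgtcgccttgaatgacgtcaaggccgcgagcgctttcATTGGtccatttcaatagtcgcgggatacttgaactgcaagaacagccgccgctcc
CCNB2: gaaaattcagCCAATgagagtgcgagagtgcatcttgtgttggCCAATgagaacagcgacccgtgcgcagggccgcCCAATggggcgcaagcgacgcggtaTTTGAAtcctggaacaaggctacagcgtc
KIF20A: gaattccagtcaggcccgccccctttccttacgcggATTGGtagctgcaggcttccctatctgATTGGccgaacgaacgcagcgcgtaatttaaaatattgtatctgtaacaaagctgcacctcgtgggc
KIF23: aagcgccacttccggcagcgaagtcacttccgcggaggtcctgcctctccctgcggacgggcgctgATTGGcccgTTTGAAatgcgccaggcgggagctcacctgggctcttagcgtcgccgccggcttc
PRC1: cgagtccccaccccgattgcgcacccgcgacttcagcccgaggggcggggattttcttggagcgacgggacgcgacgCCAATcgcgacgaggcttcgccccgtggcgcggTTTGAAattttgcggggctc

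The CCNB2 stretch holds CCAAT 120, 87 and 54 bases before the start and the CHR 29 before it. Over the window of 250 bases before to 50 after the start, all 6 genes hold CCAAT and 4 hold the CHR letters (TTTGAA or TTCGAA, both strands), those of BUB1 after the start and so not shown. Of the 42 mitosis genes 33 have an entry among the RefSeq promoters, with 36 promoters, of which 75% hold the CHR letters, 75% CCAAT and 61.1% both. Among all 35116 promoters 16.4% hold the CHR letters, 34.6% CCAAT and 6.38% both. The promoters of the DNA replication genes tested hold the CHR letters in 12.8% of 39 and an E2F site (TTTCCCGC, TTTGGCGC, TTTCGCGC or TTTGCCGC, both strands) in 33.3%, against 3.31% of all promoters. Those replication promoters hold CCAAT in 56.4%, so that box was not particular to the mitosis genes. These matches describe the sequence and show no binding. Of the 39 promoters of the p53 targets tested 15.4% (6) hold an exact match to the p53 half-site consensus, against 6.63% of all. The 39 promoters of the DNA replication genes hold it in 10.3% (4), so the share of the targets was little above theirs. SESN1 is an example, with the match, in capitals, 49 bases before the start at chr6:109008989-109009118 (minus strand, GRCh38.p14, RefSeq).
SESN1: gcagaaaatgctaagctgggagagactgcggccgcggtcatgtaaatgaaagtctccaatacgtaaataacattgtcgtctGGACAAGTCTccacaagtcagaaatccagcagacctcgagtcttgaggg

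Of 57 listed DNA replication genes 32 passed, 21 negative and 11 positive, with a median of −0.09 against −0.10 for all genes tested, and without the array labelled C 24 h replicate 1 the median was −0.08. Leaving out untreated 24 h replicate 1 gave −0.25, leaving out untreated 24 h replicate 2 gave −0.0024, and raising the signal limit to 200 gave −0.17, so the median depended on the untreated arrays and the filter. RFC4, a subunit of the clamp loader, was the only one called without the array labelled C 24 h replicate 1. In that fit 2.65% of all probe sets were called lower, so the share was near the background. RFC4 had 8.62, 7.84 and 7.27 with C against 8.48 and 8.83 untreated (−1.10, SE 0.25, limma adjusted p = 0.0202, without that array). DBF4, the activator of the CDC7 kinase, had 7.25, 6.51 and 6.90 with C against 7.67 and 7.86 untreated, with no overlap (−0.88, SE 0.29, adjusted p = 0.26). MCM6, a helicase subunit, had 9.18, 8.10 and 8.01 with C against 8.96 and 9.38 untreated, where replicate 1 lay between the untreated arrays.

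ATF3, a factor induced by many stresses, had 5.09, 9.27 and 9.18 with C against 4.67 and 4.01 untreated, and the C arrays were above both untreated arrays though replicate 1 was by little. The log2 fold change was 3.51 (SE 0.87, limma adjusted p = 0.199), and 4.89 (SE 0.43, adjusted p = 2.9e-05) without the array labelled C 24 h replicate 1. KLF4, a zinc finger factor that can restrain division, had 5.59, 7.80 and 8.39 with C against 5.11 and 4.45 untreated (2.48, SE 0.58, adjusted p = 0.187, and 3.32, adjusted p = 0.000119, without it). TXNIP, an inhibitor of thioredoxin, had 7.26, 9.42 and 9.48 with C against 7.12 and 6.60 untreated on 201010_s_at. On its other probe set, 201009_s_at, replicate 1 lay between the untreated arrays, with 5.88, 8.54 and 9.18 with C against 6.89 and 4.69 untreated. JUND, an AP-1 subunit, had 8.16, 7.21 and 8.13 with C against 7.15 and 5.53 untreated. There replicate 1 was the highest C array and the untreated arrays lay far apart, and JUND was not called in either fit. Of the 12 AP-1 and immediate early genes that passed 9 were positive and 3 negative, with a median of 0.22, and ATF3, KLF4 and IER3 were called higher without the array labelled C 24 h replicate 1, where 1.37% of all probe sets were. The median was then 0.44.

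The integrated stress response, the programme of the factor ATF4 for amino acid supply and tRNA charging, had 26 genes that passed, 23 positive and 3 negative, with a median of 0.33. This rested on the untreated arrays, as the median was 0.58 without untreated 24 h replicate 1 and −0.01 without untreated 24 h replicate 2. AARS1, the alanine tRNA synthetase, shows it, with 10.02, 10.03 and 10.19 with C against 9.88 and 8.75 untreated. ATF3 was the only one of the 26 called without the array labelled C 24 h replicate 1, where 1.37% of all probe sets were called higher.

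Interferon-stimulated genes had 8 members that passed, all positive, with a median of 0.61, and 0.34 over the 30 on the array. Without the array labelled C 24 h replicate 1 the median of the 8 was 0.64. By array it stood 0.31, 0.56 and 0.83 above the untreated mean with C, and 0.61, 0.83 and 0.25 above it with P at 24 h. The higher level was thus not particular to C. ISG15, a ubiquitin-like antiviral protein, had 6.0, 9.14 and 8.60 with C against 5.51 and 6.30 untreated, with replicate 1 between the untreated arrays (2.01, SE 0.69, limma adjusted p = 0.26, and 2.97, adjusted p = 0.00163, without the array labelled C 24 h replicate 1). IFIT2 and IFIT3, antiviral proteins that bind RNA or its partners, did not pass the filter. IFIT2 had 3.05, 6.73 and 6.57 with C against 3.33 and 2.95 untreated, and IFIT3 had 4.12, 7.41 and 7.56 with C against 4.40 and 3.92 untreated. Both showed C replicates 2 and 3 apart from the other 3 arrays. Of the inflammatory genes, TNFAIP3, a brake on NF-kappaB, failed the filter with 4.11, 8.73 and 8.92 with C against 4.89 and 5.01 untreated. PTX3, a secreted pentraxin, was the reverse, with 11.90, 10.60 and 10.81 with C against 12.18 and 12.09 untreated (−1.03, SE 0.29, limma adjusted p = 0.216, and −1.43, adjusted p = 0.000979, without the array labelled C 24 h replicate 1). IL1A, an interleukin, had 8.98, 9.77 and 10.06 with C against 8.73 and 8.64 untreated and was called in neither fit.

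**Figure D4:**
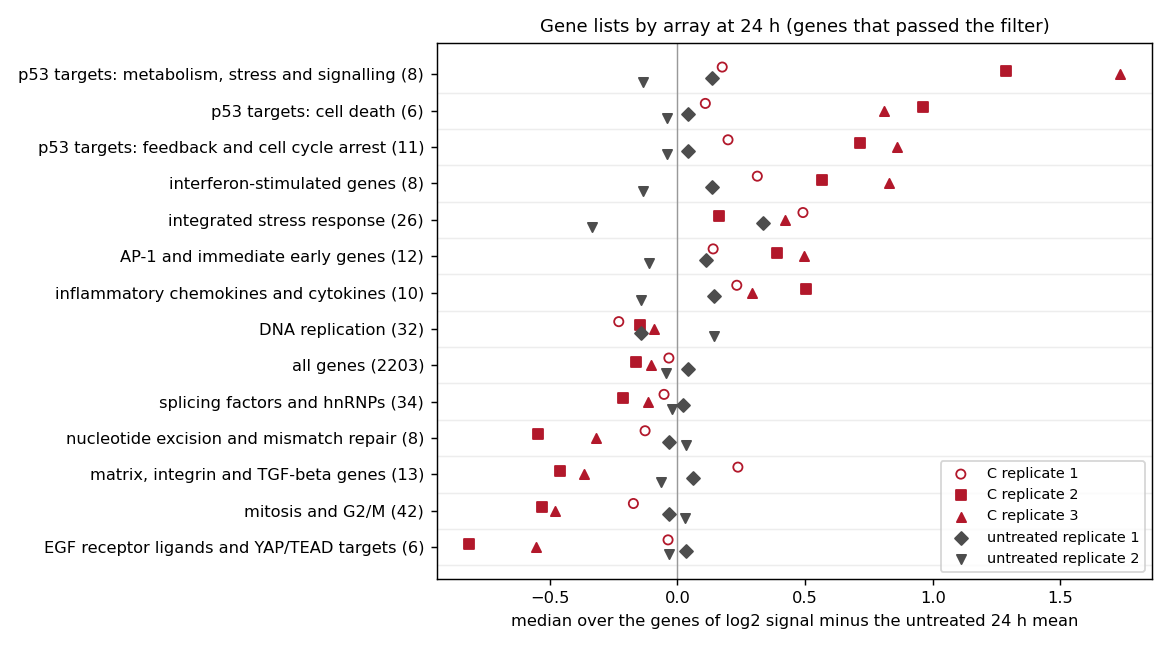
Median over the genes of each list (number that passed the filter in brackets) of log2 signal minus the untreated 24 h mean (horizontal axis), with each C array in red and each untreated array in grey. In C replicates 2 and 3 the p53 targets of metabolism, stress and signalling lie highest, at 1.29 and 1.73, and mitosis and G2/M lies at −0.53 and −0.48, and the untreated arrays are widely split for the integrated stress response, at 0.34 and −0.34.

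The repair genes other than p53 targets stood near or below the untreated level. Of 8 genes of nucleotide excision and mismatch repair that passed 7 were negative, with a median of −0.36. It was −0.42 without the array labelled C 24 h replicate 1, but −0.15 over the 23 on the array with all arrays. XPC, given above with the p53 targets, was the positive one. RAD23B, the partner of XPC, had 10.15, 9.30 and 8.34 with C against 10.24 and 10.28 untreated, below in every C array (−1.0, SE 0.43, limma adjusted p = 0.32, and −1.45, adjusted p = 0.0446, without the array labelled C 24 h replicate 1). The 6 genes of crosslink and recombination repair that passed had a median of −0.09 and none was called. FANCI, which is loaded onto crosslinked DNA with FANCD2, had 6.71, 6.84 and 7.08 with C against 7.46 and 7.30 untreated. ATR, the kinase of stalled forks, had 6.80, 6.96 and 6.91 with C against 7.14 and 7.24 untreated, and was called in neither fit. Of the platinum and copper transport genes 3 passed. ABCC4, an efflux pump, had 6.44, 5.78 and 5.85 with C against 6.76 and 6.84 untreated (−0.78, SE 0.31, adjusted p = 0.305). SLC31A1, the copper importer, had 6.90, 6.83 and 6.63 with C against 6.84 and 6.98 untreated, which overlap.

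Of the 9 BCL2 family, caspase and IAP genes that passed, PMAIP1 was the only one called without the array labelled C 24 h replicate 1. In that fit 1.37% of all probe sets were called higher. MCL1, a survival protein of the BCL2 family, had 8.63, 8.60 and 8.74 with C against 8.67 and 9.09 untreated. Of the EGF receptor ligands and YAP/TEAD targets 6 passed, 5 of them negative, with a median of −0.57, and −0.76 without the array labelled C 24 h replicate 1, but −0.16 over the 19 on the array. NT5E, the ectonucleotidase CD73, had 5.80, 5.13 and 4.89 with C against 6.08 and 6.61 untreated (−1.07, SE 0.34, limma adjusted p = 0.259, and −1.33, adjusted p = 0.0344, without the array labelled C 24 h replicate 1). HK2, a hexokinase of the first step of glycolysis, had 7.44, 6.85 and 6.53 with C against 7.64 and 8.01 untreated and was also called lower without that array (adjusted p = 0.0422). The medians were −0.28 for 13 matrix, integrin and TGF-beta genes, −0.16 for 34 splicing factors and −0.14 for 14 chaperones. They were 0.03 for 15 NRF2 and glutathione genes and −0.08 for 18 proteasome genes. Without that array these medians were, in the same order, −0.47, −0.23, −0.17, −0.05 and −0.09. None of the matrix, splicing, chaperone or proteasome genes was called in either fit on the probe set that stood for it, although RBM25 was on another, as given below.

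PRKCA, protein kinase C alpha, had the lowest log2 fold change of the called probe sets without the array labelled C 24 h replicate 1, with 7.43, 3.06 and 3.74 with C against 7.48 and 6.30 untreated. The array of replicate 1 was at the level of untreated replicate 1, and the log2 fold change was −2.14 (SE 0.87, limma adjusted p = 0.306) with it and −3.48 (SE 0.47, adjusted p = 0.000494) without it. STK39, a kinase that regulates ion cotransporters, had 6.6, 4.37 and 4.31 with C against 6.92 and 6.84 untreated. HMGA2, a chromatin protein of fetal tissue and tumours, had 6.36, 4.34 and 4.35 with C against 6.56 and 6.94 untreated. Both lay below the untreated arrays on every C array, and both were called lower without that array (−2.53 and −2.40). MGAT5, an N-glycan branching enzyme, had 7.38, 5.43 and 5.95 with C against 7.68 and 7.98 untreated. PPP2R5C, a regulatory subunit of phosphatase 2A, had 6.67, 4.56 and 4.60 with C against 7.39 and 6.91 untreated. LPAR1, a receptor of lysophosphatidic acid, had 7.59, 5.73 and 5.95 with C against 7.71 and 7.50 untreated on 204036_at. There replicate 1 lay between the untreated arrays, and both 204036_at and 204037_at were called lower without it (−1.76 and −1.37). SLC7A11, the cystine importer, differed by probe set, with −2.36 on 207528_s_at and −0.65 and −0.75 on 209921_at and 217678_at without the array labelled C 24 h replicate 1, of which only the largest was called.

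Every C array lay above both untreated arrays at 304 of the 3057 probe sets (9.94%) and below both at 670 (21.9%). RBM25, KPNA3 and 208962_s_at, which carries several symbols and is not named, came nearest to a call with all arrays. RBM25, a splicing regulator, had 4.80, 5.19 and 5.96 with C against 7.71 and 6.88 untreated on 212027_at, and all C arrays were well below (−1.98, SE 0.35, limma adjusted p = 0.0554). On its other probe sets, 212031_at and 212033_at, the log2 fold changes were 0.04 and −0.75. KPNA3, an importin alpha, had 6.85, 6.63 and 6.85 with C against 7.87 and 8.17 untreated on 221503_s_at (−1.24, SE 0.21, limma adjusted p = 0.0554), and −0.47 (adjusted p = 0.432) on 221502_at. HNRNPL, a splicing repressor, had 6.13, 6.29 and 6.53 with C against 7.66 and 7.14 untreated. CES2 on 209667_at had 6.94, 7.33 and 7.75 with C against 6.24 and 5.75 untreated, and TRIM28, a corepressor of transposons, had 9.55, 9.77 and 9.82 with C against 9.02 and 8.26 untreated. Without the array of replicate 1 RBM25 had −1.72 (limma adjusted p = 0.00986) and TRIM28 1.15 (adjusted p = 0.0566). CRIM1, a transmembrane protein that binds BMPs, had 7.91, 7.09 and 7.78 with C against 9.30 and 8.53 untreated (202551_s_at). On 202552_s_at its log2 fold change was −0.54 (limma adjusted p = 0.33). FUT8, the enzyme of core fucosylation, had 7.45, 6.52 and 6.11 with C against 8.19 and 7.80 untreated. NRIP1, a nuclear receptor corepressor, had 6.87, 7.54 and 7.91 with C against 9.12 and 8.50 untreated (202600_s_at), and here replicate 1 was the farthest from the untreated arrays. On 202599_s_at it was the nearest, with 8.54, 7.91 and 8.27 with C against 9.06 and 8.85 untreated (−0.71, limma adjusted p = 0.316). In these 3 genes no C array reached the untreated ones, which the naming rule required of the probe set that named each.

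Among the higher genes outside the lists, STOM, the membrane protein stomatin, had 6.60, 7.63 and 7.91 with C against 6.10 and 6.10 untreated on 201060_x_at (1.28, SE 0.33, limma adjusted p = 0.199, and 1.67, adjusted p = 0.00201, without the array labelled C 24 h replicate 1). BTG1, an antiproliferative protein, had 8.43, 8.98 and 9.29 with C against 8.15 and 7.58 untreated on 200921_s_at. On these probe sets every C array was above the untreated ones, while on the other, 201061_s_at for STOM and 200920_s_at for BTG1, replicate 1 lay between the untreated arrays. Both genes were called without replicate 1 on each of their 2 probe sets. TENT5A, a poly(A) polymerase, had 6.40, 9.29 and 9.40 with C against 6.42 and 6.81 untreated, and SLC30A1, a zinc exporter, had 4.54, 7.62 and 7.70 with C against 5.53 and 5.63 untreated. In these the array of replicate 1 was the lowest of the 5, and both were called higher without it (2.73 and 2.08, limma adjusted p = 0.00801 and 0.000494).

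At 10 probe sets the array labelled C 24 h replicate 1 lay at least 1 below all other 4 arrays, and at 0 at least 1 above them. TPR, a nuclear pore protein, had 2.91, 5.99 and 6.73 with C against 7.44 and 6.35 untreated on 201730_s_at, but 7.12, 6.84 and 7.61 with C against 6.77 and 6.65 untreated on 201731_s_at. PPIG, a nuclear cyclophilin, had 4.06, 6.70 and 6.89 with C against 6.99 and 6.98 untreated. ATP1B1, a subunit of the sodium pump, had 6.13, 8.18 and 8.78 with C against 8.61 and 8.48 untreated on 201242_s_at, but 7.64, 7.76 and 8.06 with C against 7.63 and 8.03 untreated on 201243_s_at. For TPR and ATP1B1 the low value was thus seen on 1 of the 2 probe sets tested. NAA15 and PRRC2C, at −1.98 and −1.93 with all arrays, were likewise lowest in replicate 1, and were not called without it. The value of PRRC2C is that of 214055_x_at, and 211948_x_at had −1.83. On the brighter 211946_s_at it had 9.27, 9.34 and 9.29 with C against 9.49 and 9.65 untreated (−0.27, limma adjusted p = 0.561).

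The difference between 24 h and 8 h was tested as the effect of C at 24 h minus its effect at 8 h, each against untreated cells of its own time, so it shares the arrays of 24 h with the values above. With all arrays 0 probe sets were called, with 78 at an unadjusted p under 0.05, and 7 were called (0.229%) without the array labelled C 24 h replicate 1. ATF3 had 5.04 and 4.72 in C cells of 8 h against 3.79 and 3.22 in untreated cells of 8 h, a log2 fold change of 1.37, and its effect at 24 h was larger by 3.51 without that array (SE 0.61, limma adjusted p = 0.0242). KLF4 had 5.61 and 5.25 with C against 5.07 and 5.64 untreated at 8 h, which overlap (difference of the effects 3.24, SE 0.54, adjusted p = 0.0242). TXNIP had 4.85 and 4.72 with C against 4.40 and 5.07 untreated at 8 h, so that untreated cells of 24 h were also higher than those of 8 h. STK39, BUB1 and LPAR1 had the lower effects at 24 h, with differences of −2.25, −1.88 and −1.65 (adjusted p = 0.0242, 0.041 and 0.0242).

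The p53 targets did not give a called difference between the times. At 8 h 25 of the 28 were positive, with a median of 0.30, against 0.02 over all genes tested, and none was called. CDKN1A had 9.04 and 8.99 with C against 7.87 and 7.70 untreated at 8 h (1.23, SE 0.57, limma adjusted p = 1). GDF15 had 8.09 and 8.88 with C against 6.85 and 6.80 untreated at 8 h, and PPM1D had 7.23 and 7.64 with C against 5.70 and 6.31 untreated. In all 3 the C arrays of 8 h lay above the untreated arrays of 8 h. Without the array labelled C 24 h replicate 1 the effect of CDKN1A was larger at 24 h by 1.40 (SE 0.41, adjusted p = 0.291), which is not a call.

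**Figure D5:**
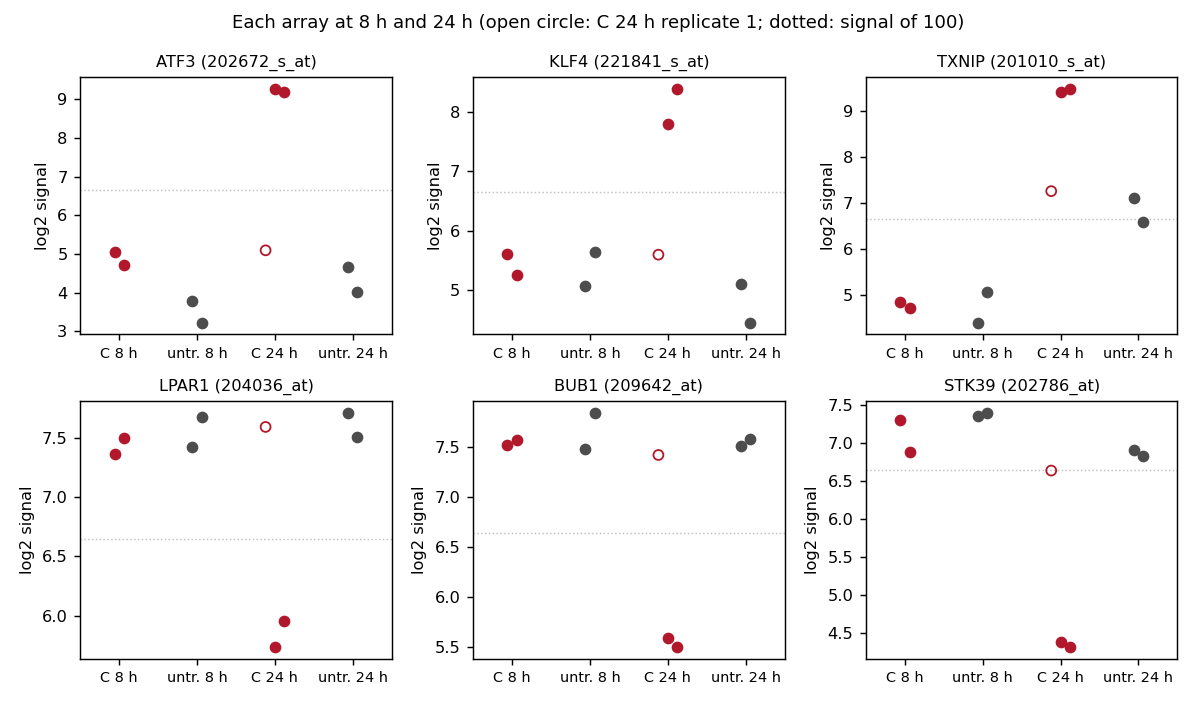
Log2 signal (vertical axis) on each array of C and untreated cells at 8 h and 24 h (horizontal axis) for the 6 named genes whose effect of C was called different between the times without C 24 h replicate 1 (open circle), with C in red, untreated in grey and a dotted line at a signal of 100. C replicates 2 and 3 of 24 h stand apart from all other arrays, as for ATF3 at 9.27 and 9.18.

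Against P at the same time C differed at more probe sets, in a comparison that shares the C arrays, but not the untreated ones, with the values above. Of 3057 probe sets 234 were called higher (7.65%) and 98 lower (3.21%) with C than with P, and 243 (7.95%) and 147 (4.81%) without the array labelled C 24 h replicate 1. The split depended on the scaling, with 171 higher and 141 lower after quantile normalization and 165 and 151 after median centring, which removes a median difference of 0.12. Of the 32 DNA replication genes 18 were called higher with C than with P and 0 lower. Against the untreated 24 h mean their medians were −0.23, −0.15 and −0.09 on the C arrays and −1.16, −0.92 and −1.23 on the P arrays. The C arrays thus lay nearer to the untreated level than the P arrays did. CDC6, which loads the replicative helicase, had 5.69, 6.58 and 6.66 with C against 3.25, 3.15 and 3.01 with P (3.18, SE 0.47, limma adjusted p = 0.000588). FEN1, the flap endonuclease, had 7.41, 6.94 and 6.84 with C against 3.94, 4.36 and 3.48 with P on 204768_s_at. For CDC6 and on this probe set of FEN1 all C arrays were above all P arrays. The brighter FEN1 probe set, 204767_s_at, had 8.24, 8.17 and 8.17 with C, and its values with P are not given here. The untreated arrays of 24 h had 5.78 and 6.68 for CDC6 and 7.01 and 7.13 for FEN1, so C was near the untreated level. Of the 42 mitosis genes 8 were called higher with C than with P and 0 lower. Their medians against the untreated 24 h mean were −0.17, −0.53 and −0.48 on the C arrays and −0.95, −1.06 and −1.09 on the P arrays. BUB1 had 7.42, 5.59 and 5.50 with C against 6.67, 6.57 and 6.13 with P, which overlap.

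SUB1, a transcription coactivator, had the largest difference of the named genes, with 6.85, 6.31 and 6.44 with C against 3.11, 2.42 and 2.52 with P on 221727_at (3.85, SE 0.40, limma adjusted p = 7.83e-05). The P values lay near the median of all probe sets on the P arrays, at 2.74, 2.82 and 2.83, and so near background. Its brighter probe sets, 212857_x_at and 214512_s_at, had 9.07 to 9.68 with C, and their values with P are not given here. SRSF6, a splicing factor, had 7.95, 7.56 and 7.72 with C against 4.79, 4.77 and 4.48 with P. Lower with C were CXCL3, a neutrophil chemokine, with 7.32, 6.69 and 6.36 against 10.01, 9.66 and 9.76 with P (−3.02, SE 0.52, limma adjusted p = 0.00143), and ALDH1A3, a retinaldehyde dehydrogenase, with 7.67, 6.76 and 6.65 against 9.45, 9.25 and 9.24 with P. PTPRK, a receptor phosphatase of cell contacts, had 6.81, 4.52 and 5.32 with C against 7.80, 7.91 and 8.06 with P. All C arrays lay on the same side of all P arrays for these 4 genes and for SUB1. The untreated arrays of 24 h had 7.21 and 6.81 for SUB1 and 7.45 and 8.11 for SRSF6. They had 6.81 and 6.54 for CXCL3 and 7.65 and 7.09 for ALDH1A3. In each of these the C mean lay nearer to the untreated mean than the P mean did. PTPRK had 7.16 and 6.98 untreated, between the C and the P arrays.

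Of the p53 targets 3 of the 28 were called higher with C than with P and 0 lower, where 7.65% and 3.21% of all probe sets were, so the share of the targets was near the background. Without the array labelled C 24 h replicate 1 it was 11 and 0, where 7.95% and 4.81% of all probe sets were called. PPM1D was one of the 3, with 6.27, 8.72 and 8.82 with C against 6.84, 6.12 and 6.56 with P, and replicate 1 lay among the P arrays (1.43, SE 0.49, limma adjusted p = 0.045). CDKN1A had 8.66, 10.71 and 11.46 with C against 9.82, 9.62 and 9.55 with P, and C replicate 1 was the lowest of the 6 arrays (0.62, SE 0.47, adjusted p = 0.351, and 1.42, adjusted p = 0.00236, without it). GDF15 had 9.01, 11.27 and 11.68 with C against 10.49, 10.27 and 10.25 with P, again with C replicate 1 the lowest.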

How the data were processed

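RNA of MSTO-211H cells had been labelled with biotin and hybridised to HGU133A arrays. Per the methods, array quality was assessed by model fitting and outlying arrays were dropped. The authors deposited log2 signals made by GCRMA, which corrects the background and normalizes between arrays, so levels of different probe sets are not comparable. No source names the GCRMA version, and the deposited values hold no counts. Groups and replicate numbers came from the titles.

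A linear model with a mean for each of 8 groups was fitted over all 18 arrays in limma 3.58.1 (R 4.3.3), and the spread was shared between groups, with 10 residual degrees of freedom and 5.76 from the prior. Tests were two-sided. The thresholds of the filter were those of the study's methods, but on the deposited values the range filter kept 10388 probe sets and the signal filter then 3089, which are not the numbers the methods state. The 68 control probe sets were left out. Gene names are those of the platform annotation. Of its probe sets 19071 have 1 symbol, 1043 several and 2169 none, and 2750 of the tested ones have 1. A probe set with several symbols was not named. In the gene lists a gene is the probe set with the highest mean over the 18 arrays. The lists gave counts and medians and no test.

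The members and lists were chosen with earlier results of these data known. Genes were named by a rule. It took the 15 largest differences each way with an unadjusted p under 0.05 and no overlap, the 10 largest calls each way without C 24 h replicate 1, the tested p53 targets, up to 5 members of each other list and the 5 largest calls each way of the other comparisons. Probe sets that stood out in replicate 1 and dim genes such as MDM2, SPC25, FAS, DDB2, IFIT2, IFIT3 and TNFAIP3 were named after their values were seen, and so were KPNA3, KIF23, CCNB1, FOXM1, TOP2A and probe sets called under few settings. The p53 transcript itself is not analysed here. The fitting was tested on simulated data. The alternatives were other filters, normalizations, array weights, a replicate block and leaving out arrays.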

Additional observations from a re-analysis of the deposited data

Results flagged for a closer look

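The effect of C differed between 24 h and 8 h at 7 probe sets by the test of the difference itself, and only without the array labelled C 24 h replicate 1. With all arrays 0 were called, at a smallest adjusted p of 0.915. The difference of the effects, in log2 units, was 3.51 for ATF3 (4.89 at 24 h and 1.37 at 8 h), 3.24 for KLF4 (3.32 and 0.07) and 2.54 for TXNIP (2.60 and 0.05) on 201010_s_at. It was −1.65 for LPAR1 (−1.76 and −0.12), −1.88 for BUB1 (−2.00 and −0.11) and −2.25 for STK39 (−2.53 and −0.28). The probe set 207813_s_at, which carries several gene symbols and is not named, had 3.30 (3.67 and 0.37). On 201009_s_at TXNIP had a difference of 3.16 (limma adjusted p = 0.155), and LPAR1 had −1.05 on 204037_at (adjusted p = 0.453), so neither call was shared by the gene's other probe set.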

How the results depend on the processing

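The count of 0 called probe sets for C at 24 h (421 at an unadjusted p under 0.05, limma) stayed at 0 without a limit on the fold change, with median centring, with only the 24 h arrays or only those of the contrast, and with a trended robust prior. It was 1 with all probe sets, 1 with the signal limit raised to 200 and 1 without the interquartile range filter (KPNA3 each time), 2 after quantile normalization (RBM25 and KPNA3) and 134 with array weights, of which 107 were among the 123 called without C 24 h replicate 1. The weights were 0.388 for C 24 h replicate 1, 1.28 for replicate 2 and 2.20 for replicate 3. Leaving out arrays gave 0 to 152 calls. These were 123 without C 24 h replicate 1, 152 without it and P/C 24 h replicate 1, 1 without C 24 h replicate 3 (RBM25), 1 without untreated 24 h replicate 1 (221477_s_at) and 0 without the others. For the effect at 24 h minus that at 8 h leaving out arrays gave 0 to 17 calls, and all other settings 0. For C against P the count of 332 was 752 without a limit on the fold change, 617 with all probe sets and 190 with the signal limit raised to 200, and 283 to 408 when arrays were left out.

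With a replicate block within each time 5 were called, 208962_s_at higher and CRIM1, IGF2BP3, RBM25 and KPNA3 lower, and 344 for C against P. Replicate 1 arrays of C and untreated cells had a correlation of deviations of 0.0787 and replicate 2 arrays 0.384, over 2 pairs, so the numbers were not taken to pair the arrays.

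No called value changed sign, while uncalled values near 0 did, such as BAX (0.09 with all arrays and −0.08 without C 24 h replicate 1) and PLK2 (0.02 and −0.10). Of the list medians 442 values over all settings stayed within the spread and 33 moved. The spread was the standard deviation of the list's medians on the 3 C arrays. It takes in C 24 h replicate 1, so this count is a poor guide to how far a median depends on that array. The median of the p53 targets went from 0.53 to 0.89 without that array and still counts as within the spread. Of the 3 C arrays and 2 untreated arrays, C 24 h replicate 1 moved the count of calls most when left out, and what sets it apart was not tested. With 2 untreated arrays, a list that splits them, such as the integrated stress response, cannot be read in either direction.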
